A study of Rattus norvegicus with 30 samples.

Results

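The 10 genes described here belong to the response of a cell to unfolded proteins in the endoplasmic reticulum (ER) and to shortage of amino acids. They were chosen by symbol, as the rows Hspa5, Sdf2l1, Dnajb9, Herpud1, Xbp1, Atf4, Ddit3, Trib3, Asns and Chac1 of the deposited read and FPKM tables, and make up 10 of the 22914 genes of the read table. RNA was sequenced from the lungs of 8-week-old male Sprague Dawley rats in a model of acute lung injury that follows severe acute pancreatitis (SAP). Pancreatitis was induced by running 5.0% sodium taurocholate, a bile salt, backwards into the biliopancreatic duct. The Con rats received sterile saline in the duct and the Sham rats had only the pancreas turned slightly at surgery. The DEX rats had SAP and dexamethasone, a glucocorticoid, at 10 mg/kg into a vein, and the Emo rats had SAP and emodin, an anthraquinone from rhubarb, into the stomach. The protocol gives emodin as 40 mg/kg and the sample descriptions as 10 mg/kg. Both drugs were given at 2 h and 12 h, so that lungs taken at 6 h had met the first dose only. All rats were fasted, anaesthetised and operated on, and those without a drug received its vehicle. Each of the 5 groups was sampled at 6 h and at 24 h, with 3 rats per group and time and 1 library per rat, 30 libraries in all.

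Proteins that enter the ER are folded there by chaperones. When unfolded protein builds up, the sensors IRE1, PERK and ATF6 are released from the chaperone BiP, the product of Hspa5. ATF6 and the spliced form of XBP1, which IRE1 makes, switch on chaperone and degradation genes. PERK phosphorylates the initiation factor eIF2alpha, as do GCN2 when uncharged tRNA accumulates, PKR when double-stranded RNA is present and HRI when haem is short, and this favours the translation of ATF4, which switches on amino acid synthesis, transport and tRNA charging genes. In the lung the ER load is borne above all by secretory cells such as alveolar type 2 cells, which make surfactant proteins. In bulk lung RNA, fewer cells of a type and less RNA per cell cannot be told apart, and the gene-level values do not separate spliced from unspliced Xbp1.

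The promoters of some of these genes carry the short elements through which these factors act, and the stretches that hold them are shown because the genes were grouped by those factors. All 10 genes matched a RefSeq promoter (build GRCr8, 250 bases before to 50 bases after the start of the gene). Both strands were searched for 4 motifs: the ER stress element (CCAAT and CCACG with any 9 bases between them), its second form (ATTGG and CCACG with any 1 base between them), the XBP1 site TGACGTGG and the ATF4 composite site TGATGNAA. The matches are in capitals, 5′ to 3′ on the strand of the gene, with up to 35 bases on each side. They are descriptions of the sequence and not measured binding.
Hspa5, chr3:38452938-38453026, plus strand, ER stress element 43 to 25 bases before the start: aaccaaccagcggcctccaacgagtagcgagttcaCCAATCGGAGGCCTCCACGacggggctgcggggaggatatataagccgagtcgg
Xbp1, chr14:84604523-84604611, plus strand, ER stress element 65 to 47 bases before the start: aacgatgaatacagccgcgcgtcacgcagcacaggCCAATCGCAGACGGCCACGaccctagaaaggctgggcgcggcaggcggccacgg
Herpud1, chr19:10614786-10614866, minus strand, second form of the ER stress element 124 to 114 bases before the start: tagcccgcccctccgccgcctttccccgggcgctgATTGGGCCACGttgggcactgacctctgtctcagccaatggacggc
Herpud1, chr19:10614849-10614926, minus strand, ATF4 composite site on the opposite strand 184 to 177 bases before the start: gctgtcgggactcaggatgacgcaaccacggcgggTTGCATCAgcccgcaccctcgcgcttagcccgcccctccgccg
Trib3, chr3:161275512-161275589, minus strand, ATF4 composite site on the opposite strand 21 to 14 bases before the start: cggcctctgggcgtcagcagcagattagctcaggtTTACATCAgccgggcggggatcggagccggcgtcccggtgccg
Chac1, chr3:126795929-126796006, plus strand, ATF4 composite site on the opposite strand 167 to 160 bases before the start: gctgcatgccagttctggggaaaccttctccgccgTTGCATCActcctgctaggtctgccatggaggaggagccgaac
Of 33469 rat promoters of this length, the ER stress element was found in 0.0657%, its second form in 0.0508%, the XBP1 site in 0.595% and the ATF4 composite site in 3.98%. None of the 4 motifs occurred in the windows of Sdf2l1, Dnajb9, Atf4, Ddit3 and Asns.

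Between 16813949 and 34692306 reads per library fell on genes. In the paper's supplement, every Con and Sham library had a larger share of uniquely mapped reads than any SAP, DEX or Emo library. The part of this difference in the comparisons with Sham and Con was not tested. The 10 genes had 34 reads (Chac1) to 76503 reads (Hspa5) in a single library, and all 10 passed the filter on low counts that left 15934 genes for testing. Lung markers were abundant in every library, with Sftpc of alveolar type 2 cells at 12730 to 30190 FPKM (fragments per kilobase of transcript, scaled to the depth of the library) and Ager of alveolar type 1 cells at 367.9 to 1893 FPKM. The summed level of the 9 acinar pancreas markers in the tables was 5.29 to 29.28 FPKM, highest in SAP-24h replicate 3, and of its defining markers Cela2a, Pnlip and Cpa1 none exceeded 0.46 FPKM in any library. Every comparison below gives a log2 fold change from edgeR's quasi-likelihood model of the counts. A gene passed the test at a Benjamini-Hochberg adjusted p below 0.05 over all 15934 genes, and the 2-fold rule asked for at least a 2-fold change as well. Each group had 3 rats, and the spread behind the p-values was estimated over all 10 groups together, so that a group with a wide spread of its own, such as SAP-24h, was tested against the pooled spread.

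**Figure D1:**
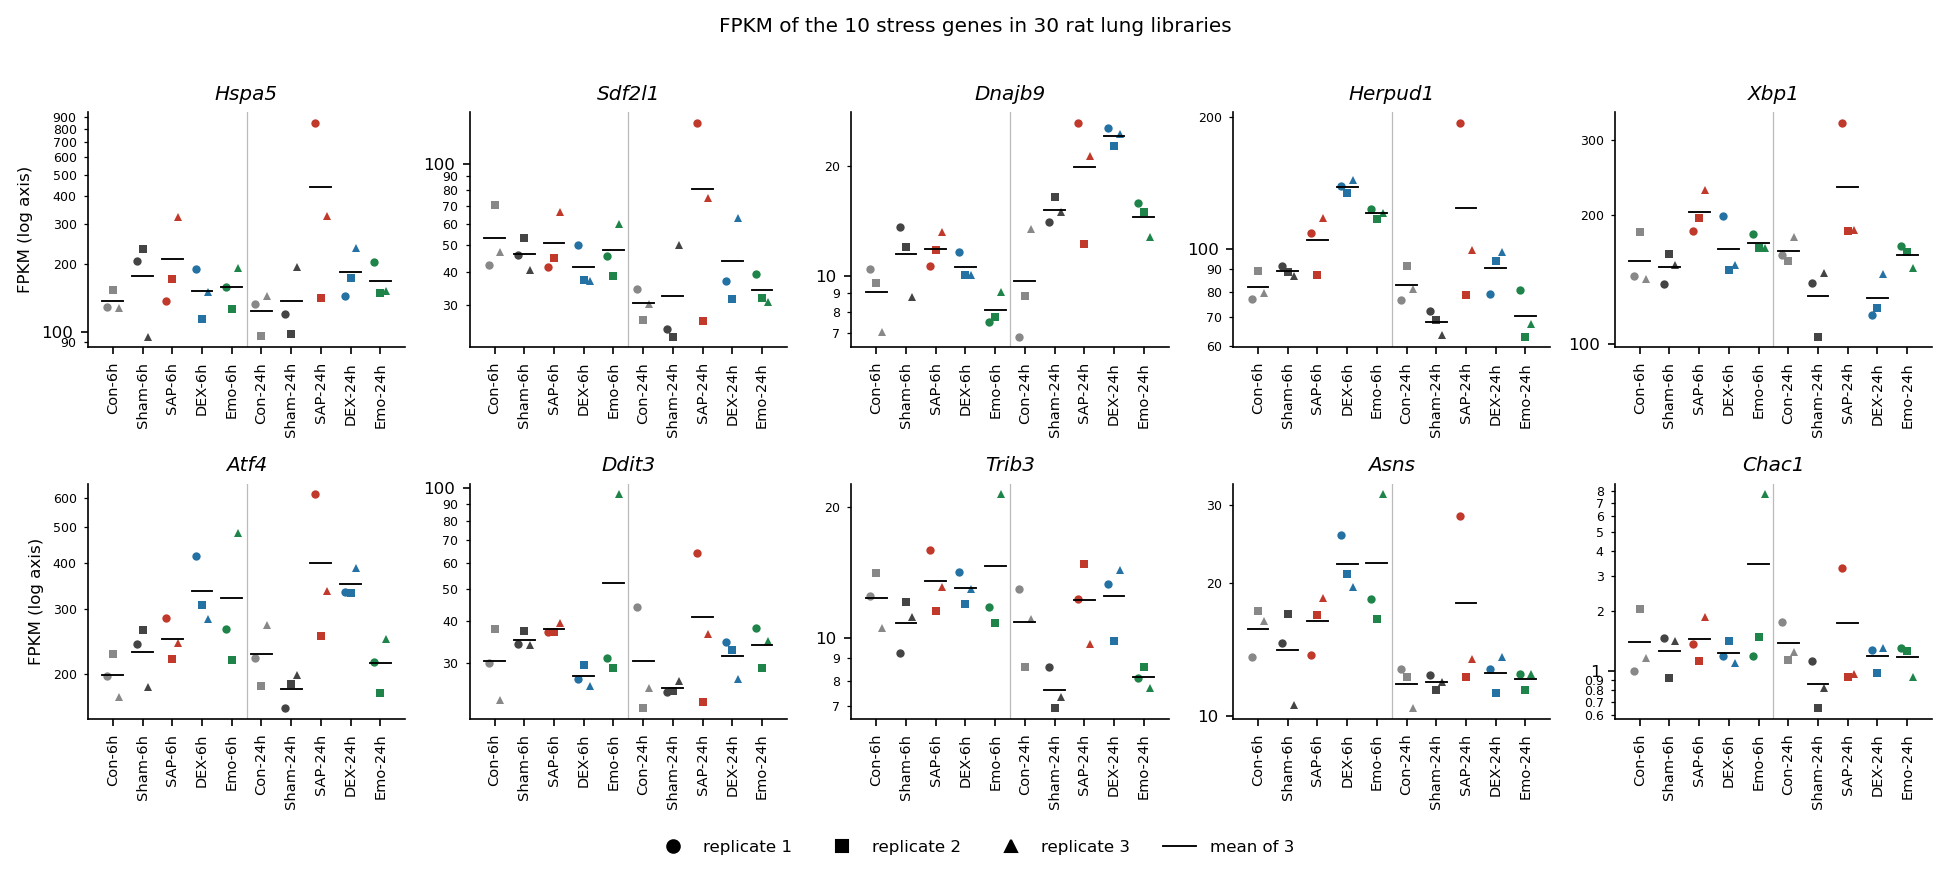
FPKM of each of the 10 genes (one panel per gene, log axis) in the 30 libraries, by group on the horizontal axis, with a point per rat and a bar at the mean of 3 rats. SAP-24h spreads most for Hspa5 (141 to 849 FPKM), and one Emo-6h library stands far above the other two for Ddit3 and Chac1.

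A pair of libraries stood apart from their groups in these genes, and the edgeR calls of the 10 genes that rest on them are given with and without them. SAP-24h replicate 1 was the highest of the 30 libraries for Hspa5, Sdf2l1, Dnajb9, Herpud1, Xbp1 and Atf4. There Hspa5 was 5.6 times its median over the 30 libraries, Sdf2l1 3.44 times, Atf4 2.49 times, Herpud1 2.19 times, Dnajb9 2.16 times and Xbp1 2.04 times. Emo-6h replicate 3 was the highest library for the remaining genes, with Chac1 at 6.33 times its median, Ddit3 at 2.99 times, Asns at 2.33 times and Trib3 at 1.83 times. Atf4 was second highest in Emo-6h replicate 3 (1.96 times), and Chac1 (2.7 times), Asns (2.08 times) and Ddit3 (2.0 times) were second highest in SAP-24h replicate 1, so that both libraries were high in this branch. Dnajb9 in Emo-6h replicate 3 was at 0.747 times its median, and Trib3 in SAP-24h replicate 1 at 1.06 times. Of all 12178 genes with a median of at least 1 FPKM, 6.22% were highest in SAP-24h replicate 1 and 9.99% in Emo-6h replicate 3, with median ratios of 0.871 and 0.991.

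**Figure D2:**
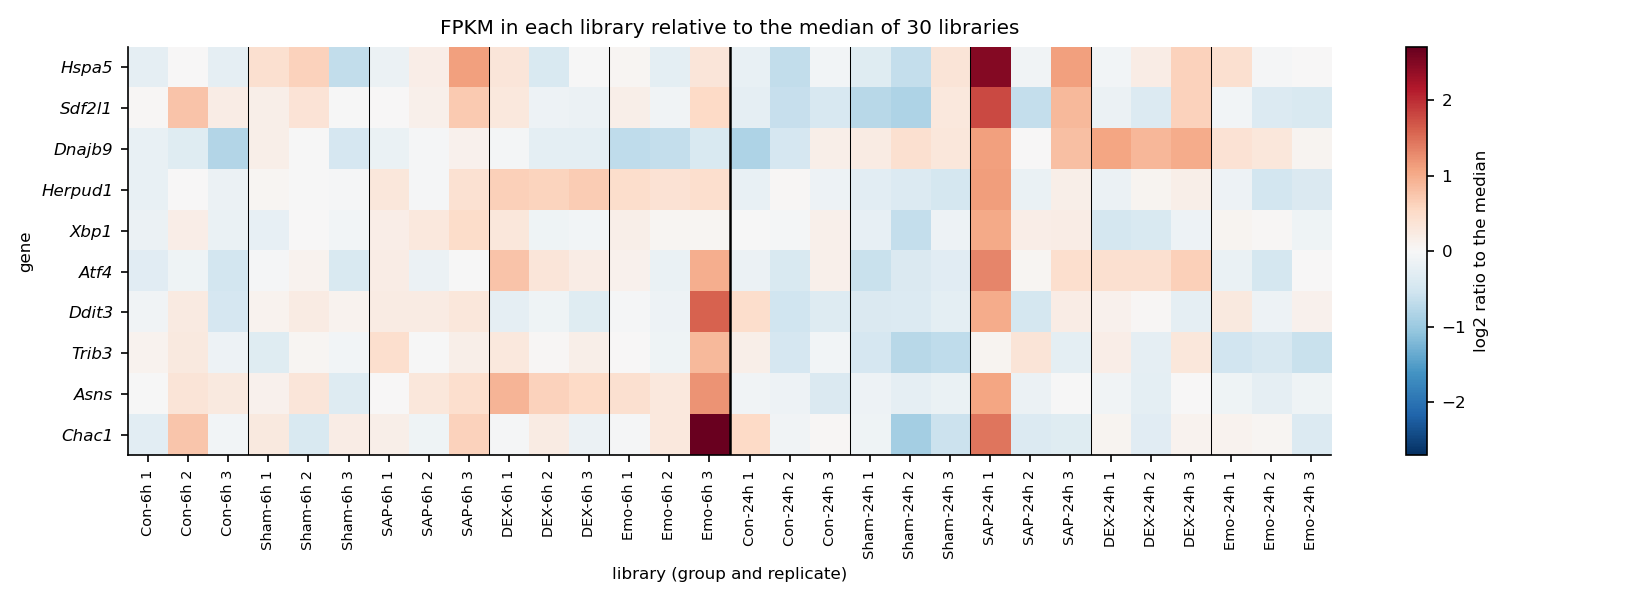
Level of each gene (rows) in each library (columns, by group and replicate) as the log2 ratio of its FPKM to the median of 30 libraries, in colour. SAP-24h replicate 1 is high for 9 of the 10 genes, all but Trib3, while Emo-6h replicate 3 is high for Ddit3, Trib3, Asns, Chac1 and Atf4.

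The levels differed widely between the genes. Per length, Hspa5 had group means from 124.2 ± 25.3 FPKM (mean ± SD, n = 3, Con-24h) to 439.3 ± 367.0 FPKM (SAP-24h), the SD of the latter being nearly as large as its mean. Atf4 means ran from 182.6 FPKM in Sham-24h to 400.1 FPKM in SAP-24h and Xbp1 means from 127.9 FPKM in DEX-24h to 232.5 FPKM in SAP-24h. Sdf2l1 means ran from 30.56 FPKM in Con-24h to 80.83 FPKM in SAP-24h. Chac1 was the lowest gene, with means from 0.8633 FPKM in Sham-24h to 3.463 FPKM in Emo-6h. When the 10 group means of a gene were put in order, neighbours mostly lay within 1 SD of each other, in 9 of 9 neighbouring pairs for Hspa5, Sdf2l1, Atf4 and Asns, in 8 for Dnajb9, Xbp1, Trib3 and Chac1, and in 7 for Herpud1 and Ddit3. Dnajb9 had its own order, with its highest mean in DEX-24h (24.14 ± 1.35 FPKM) and its lowest in Emo-6h (8.093 ± 0.827 FPKM), and Herpud1 was highest in DEX-6h (138.8 ± 4.79 FPKM) and lowest in Sham-24h (68.28 ± 4.45 FPKM).

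The first question was how pancreatitis alone altered these genes in the lung at 24 h. Against Sham-24h, 6 of the 10 genes rose in SAP-24h (Hspa5, Sdf2l1, Herpud1, Xbp1, Atf4 and Trib3) and none fell, while 6.8% of all genes tested rose and 5.62% fell. By the 2-fold rule 4 genes rose (Hspa5, Sdf2l1, Herpud1 and Atf4), against 1.98% of all genes. The median log2 fold change was 1.0 over the 10 genes, 0.537 without SAP-24h replicate 1, and -0.032 over all genes tested.

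Hspa5 encodes BiP, the main Hsp70 chaperone of the ER. It measured 849, 141 and 328 FPKM in the 3 SAP-24h rats against 121, 97.5 and 194 FPKM in Sham-24h. The rat with 141 FPKM lay within the Sham range, so the groups overlapped. The fold change was 3.60-fold (log2 1.85, SE 0.456, adjusted p = 0.0119). Sdf2l1, a partner of the ER Hsp40 proteins, measured 141, 26.3 and 74.9 FPKM against 24.6, 23.0 and 50.2 FPKM, with SAP-24h replicate 2 again within the Sham range (log2 1.47, SE 0.402, adjusted p = 0.0207). Dnajb9, an ER Hsp40 cochaperone of BiP and a target of XBP1, measured 26.2, 12.2 and 21.2 FPKM against 14.1, 16.4 and 14.98 FPKM. One SAP rat lay below all the Sham rats, and the difference did not pass (log2 0.53, adjusted p = 0.128).

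Herpud1 encodes a membrane protein of the complex that returns misfolded proteins for degradation. It measured 194, 78.7 and 99.4 FPKM in SAP-24h and 72.4, 68.9 and 63.5 FPKM in Sham-24h, all SAP rats lying above all Sham rats (log2 1.02, SE 0.215, adjusted p = 0.00465). Xbp1, the transcription factor spliced by IRE1, measured 329, 184 and 185 FPKM against 139, 104 and 146 FPKM. Here too the groups did not overlap, and the rise was just under 2-fold (log2 0.99, SE 0.189, adjusted p = 0.0026). Atf4 measured 612, 254 and 335 FPKM against 161, 188 and 199 FPKM, again without overlap (log2 1.28, SE 0.292, adjusted p = 0.00755).

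Further down the PERK and ATF4 branch the picture was mixed. Ddit3, which encodes the pro-apoptotic factor CHOP, measured 63.9, 23.1 and 36.6 FPKM in SAP-24h and 24.5, 24.9 and 26.5 FPKM in Sham-24h, and the difference did not pass (log2 0.85, adjusted p = 0.121). Trib3, a pseudokinase induced by ATF4 and CHOP, was the one gene here whose highest SAP-24h value was not in replicate 1. It measured 12.3, 14.8 and 9.7 FPKM against 8.59, 6.91 and 7.32 FPKM, without overlap (log2 0.82, SE 0.219, adjusted p = 0.0177). All SAP-24h rats lay above all Sham-24h rats in 4 of the 10 genes and below them in 0, beside 7.58% and 21.8% of all genes tested. Asns, asparagine synthetase, measured 28.2, 12.2 and 13.5 FPKM against 12.4, 11.4 and 11.9 FPKM, with an adjusted p of 0.0596 at log2 0.75. Chac1, which degrades glutathione, measured 3.3, 0.94 and 0.97 FPKM against 1.12, 0.65 and 0.82 FPKM (log2 1.18, adjusted p = 0.153). For Asns and Chac1 the difference in means lay mostly in replicate 1.

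**Figure D3:**
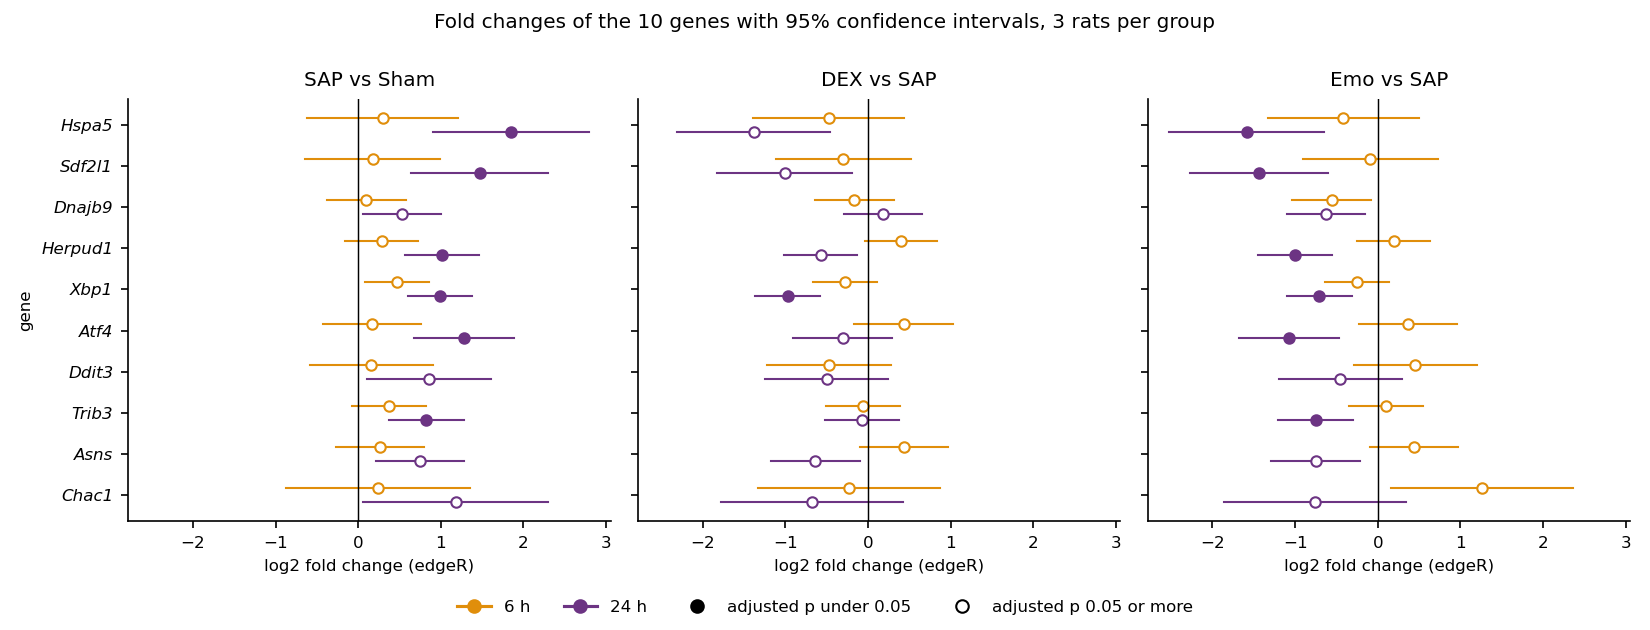
Log2 fold change of each gene (rows; edgeR, 3 rats per group) with its 95% confidence interval, in panels for SAP against Sham, DEX against SAP and Emo against SAP, with 6 h and 24 h in separate colours and filled points at an adjusted p under 0.05. In SAP-24h against Sham-24h the values run from 0.53 (Dnajb9) to 1.85 (Hspa5), all above 0.

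The size of these rises rested in large part on SAP-24h replicate 1. When it was left out, 2 of the 6 genes still passed, Herpud1 (log2 0.47, adjusted p = 0.0326) and Xbp1 (log2 0.60, adjusted p = 0.0155), while 3.2% of all genes rose in that fit. Hspa5 dropped to log2 0.86 (adjusted p = 0.17), Sdf2l1 to 0.71 (0.232) and Atf4 to 0.77 (0.0752), whereas Trib3 kept its size at 0.78 but not its call (0.0574). By the 2-fold rule no gene was then called. Leaving out Sham-24h replicate 2 ended the calls of Hspa5, Sdf2l1 and Trib3, leaving out Sham-24h replicate 1 that of Sdf2l1, and leaving out SAP-24h replicate 2 that of Trib3. In a fit of these 6 libraries alone, none of the 6 genes passed, with adjusted p from 0.101 (Trib3) to 0.237 (Sdf2l1) at nearly the same fold changes. DESeq2 passed these 6 and Asns (log2 0.79, adjusted p = 0.0277), beside 17.1% of all genes in either direction, and limma on log2(FPKM + 1) passed 5 of the 6, Sdf2l1 being lost (adjusted p = 0.075).

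**Figure D4:**
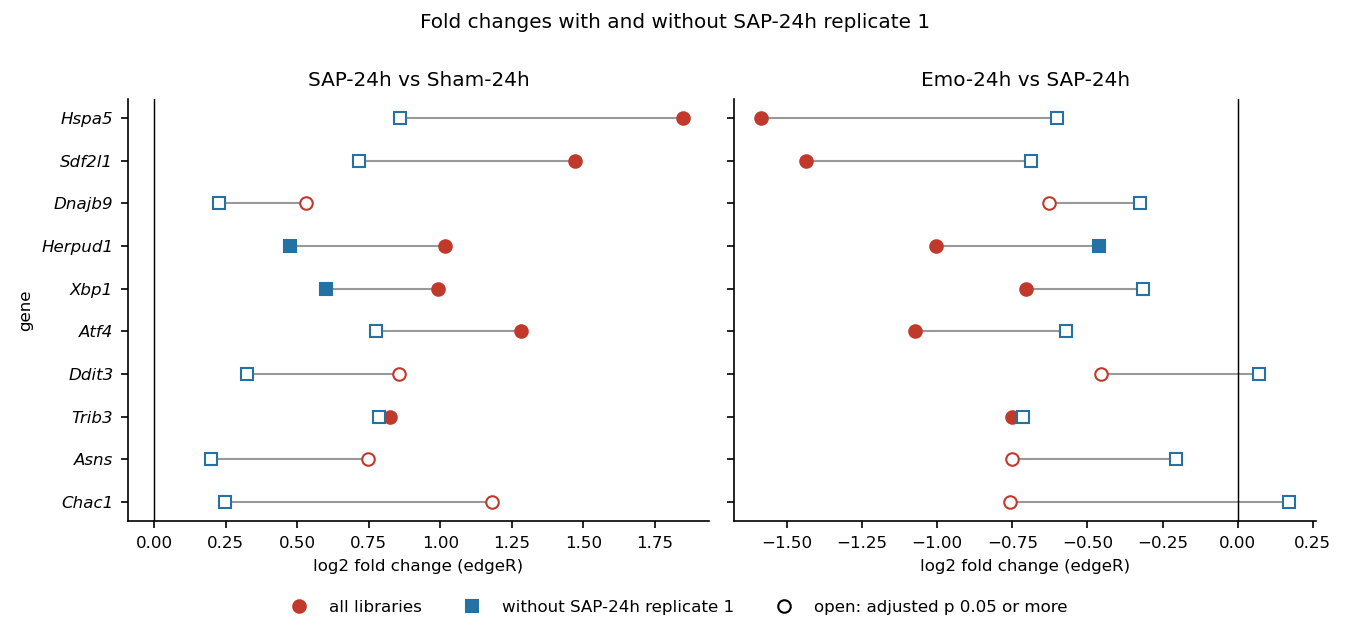
Log2 fold change (edgeR) of each gene in SAP-24h against Sham-24h and in Emo-24h against SAP-24h, with all libraries (circles) and without SAP-24h replicate 1 (squares), open where the adjusted p was 0.05 or more. Against Sham-24h, Hspa5 moves from 1.85 to 0.86 while Trib3 stays near 0.8.

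Markers of other cells moved with SAP-24h as well. The summed level of the 9 neutrophil markers was 12750, 4595 and 16560 FPKM in SAP-24h replicates 1, 2 and 3, and 207.7 to 9290 FPKM in Sham-24h. Of the 8 neutrophil markers tested 1 passed, Il1r2, with a median log2 fold change of 1.71 over the 8. The alveolar type 1 sum was 1373 FPKM in replicate 1, the lowest of the 30 libraries, against 2854 and 2720 FPKM in the other two, and 1 of 6 markers (Aqp5) fell. The ciliated cell sum was also lowest in replicate 1 (280.9 FPKM, against 498.1 and 546.6 FPKM). The plasma cell sum was 175.7 to 192.8 FPKM in SAP-24h and 227.4 to 365.5 FPKM in Sham-24h, with 3 of 8 markers lower. The sum of 8 heart muscle markers was 11.13, 7.46 and 136.2 FPKM in SAP-24h replicates 1, 2 and 3 and 11.8 to 183.0 FPKM in Sham-24h, with a median of -1.256 and 0 of 8 past the test. The alveolar type 2 sum was 28490 to 48230 FPKM in SAP-24h and 25230 to 35500 FPKM in Sham-24h, and 1 of 8 markers, Sftpb, rose, with a median of 0.431. Replicate 1, highest in most of the 10 genes, held the lowest of the 3 SAP-24h sums. In the other lists the ciliated marker Stoml3 and the endothelial marker Kdr fell, 1 of 6 in each, the club cell marker Scgb1a1 rose, 1 of 5, and so did 1 of 6 macrophage markers, Marco, which did not exceed 0.86 FPKM in any library. The part of these cell types in the rise of the 10 genes was not tested.

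Against Con-24h, the saline controls, 7 of the 10 genes rose in SAP-24h and none fell, beside 12.1% of all genes tested. By the 2-fold rule 3 genes rose, Hspa5 (log2 1.99, adjusted p = 0.0041), Sdf2l1 (1.56, 0.00871) and Dnajb9 (1.18, 0.00165), against 3.65% of all genes. Dnajb9 measured 6.83, 8.84 and 13.4 FPKM in Con-24h, so that one of the Con rats lay above the lowest SAP rat. Herpud1 (log2 0.73), Xbp1 (0.64), Atf4 (0.98) and Asns (0.76) passed below 2-fold, with adjusted p from 0.0173 to 0.0392. Without SAP-24h replicate 1 only Dnajb9 still passed of these 7 (log2 0.86, adjusted p = 0.0156), beside 7.74% of all genes higher in that fit, and it also passed when any other of the 6 libraries was left out. Leaving out Con-24h replicate 1 ended the calls of Asns, Atf4, Herpud1 and Xbp1, Con-24h replicate 2 those of Asns, Atf4 and Xbp1, and Con-24h replicate 3 that of Asns. In a fit of these 6 libraries alone none of the 7 passed, with adjusted p from 0.106 (Dnajb9) to 0.242 (Herpud1). DESeq2 passed the same 7 genes, beside 25.0% of all genes in either direction, and in limma Hspa5 and Dnajb9 alone of the 7 passed, the other adjusted p lying between 0.0501 (Atf4) and 0.147 (Asns). All 8 neutrophil markers tested rose here, with a sum of 106.3 to 961.2 FPKM in Con-24h. The alveolar type 1 markers Ager and Aqp5 fell, 2 of 6, as did the plasma cell marker Tnfrsf17 (1 of 8), the endothelial marker Kdr and the ciliated marker Tppp3 (1 of 6 each), while of 6 macrophage markers Marco rose and Csf1r fell. The part of these cell types was not tested. The 2 controls themselves showed no gene of the 10 past the test between Sham-24h and Con-24h in edgeR or in DESeq2, and 2 had an unadjusted p below 0.05, as did 27.0% of all genes, while 9.85% of all genes passed in edgeR.

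At 6 h the effect of pancreatitis on these genes did not pass for any of them. Against Sham-6h, 0 of 10 passed in edgeR and 0 in DESeq2, and 1 (Xbp1) had an unadjusted p below 0.05, as did 13.1% of all genes, while 0.27% of all genes passed. All 10 log2 fold changes lay above 0, from 0.10 (Dnajb9) to 0.47 (Xbp1), with a median of 0.25. Xbp1 measured 184, 197 and 229 FPKM in SAP-6h against 138, 162 and 153 FPKM in Sham-6h, every SAP rat above every Sham rat. This held for 1 of the 10 genes and 5.58% of all genes tested, and the reverse for 0 and 9.68%. Hspa5 measured 137, 172 and 325 FPKM against 206, 233 and 95.2 FPKM, with the groups overlapping and a 95% confidence interval of the log2 fold change from -0.62 to 1.21. Against Con-6h, 0 genes passed in edgeR and in DESeq2, with 1 at an unadjusted p below 0.05, against 10.4% of all genes, and 0.207% of all genes passing. Between Sham-6h and Con-6h, 0 of the 10 passed in both tools, 0 had an unadjusted p below 0.05, against 8.61% of all genes, and 0% of all genes passed. The change of the SAP effect from 6 h to 24 h was tested as an interaction, and 0 of the 10 genes passed in edgeR or DESeq2, with 4 at an unadjusted p below 0.05 (Hspa5, Sdf2l1, Herpud1 and Atf4), against 12.6% of all genes, and 0.0314% of all genes passing.

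Dexamethasone is a glucocorticoid, and its groups addressed how a standard anti-inflammatory drug altered the response. In DEX-24h against SAP-24h, 1 of the 10 genes fell, Xbp1, while 4.73% of all genes fell. Xbp1 measured 117, 121 and 146 FPKM in DEX-24h (log2 -0.97, SE 0.189, adjusted p = 0.00292). It was the 1 gene of the 10 below all 3 SAP-24h rats, beside 8.65% of all genes tested. It passed without each of the 6 libraries in turn, at log2 -0.57 (adjusted p = 0.021) without SAP-24h replicate 1, but not in a fit of the 6 libraries alone (adjusted p = 0.151). The plasma cell sum was also lower in DEX-24h (138.3 to 163.2 FPKM) than in SAP-24h (175.7 to 192.8 FPKM), with 1 of 8 markers, Cd79a, past the test, and the neutrophil sum was 1082 to 3037 FPKM, with Camp and Ngp past the test of the 8 tested. The ciliated markers Stoml3 and Ccdc39 rose, 2 of 6, as did the endothelial marker Kdr, 1 of 6. The part of these cell types in the fall of Xbp1 was not tested. Hspa5 measured 144, 174 and 235 FPKM in DEX-24h and just missed the threshold (log2 -1.39, adjusted p = 0.0598), and without SAP-24h replicate 1 its log2 fold change was -0.38. DESeq2 passed Hspa5 (log2 -1.40, adjusted p = 0.0161) and Xbp1, beside 11% of all genes in either direction. Atf4 measured 332, 332 and 386 FPKM in DEX-24h, within the SAP-24h range, and its difference from SAP-24h did not pass (log2 -0.31, 95% confidence interval -0.90 to 0.29). Dnajb9 measured 25.4, 22.7 and 24.4 FPKM in DEX-24h, with a narrow spread, and did not pass either (log2 0.18, 95% confidence interval -0.30 to 0.65).

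Against Sham-24h, 2 of the 10 genes rose in DEX-24h, Atf4 (log2 0.97, adjusted p = 0.042) and Trib3 (log2 0.76, adjusted p = 0.037), beside 2.7% of all genes. All DEX-24h rats lay above all Sham-24h rats for Atf4. The same held for 5 of the 10 genes and 10.2% of all genes tested, and the reverse for 0 and 15.9%. Trib3 measured 13.3, 9.87 and 14.4 FPKM in DEX-24h, above the Sham-24h range of 6.91 to 8.59 FPKM. The Atf4 call was lost when any one of the 6 libraries was left out, with adjusted p from 0.0616 to 0.168, and the Trib3 call was lost for 5 of the 6 libraries, all but DEX-24h replicate 2. In limma the Trib3 call was lost too (adjusted p = 0.0606). DESeq2 passed both genes and Dnajb9 (log2 0.73, adjusted p = 0.0278), beside 9.73% of all genes in either direction. The plasma cell markers Jchain, Irf4 and Cd79a fell in this comparison, 3 of 8, and the neutrophil marker Ngp, 1 of 8, while the alveolar type 2 marker Sftpb, 1 of 8, and Marco, 1 of 6 macrophage markers, rose, and their part was not tested. At 6 h, 0 of the 10 genes passed between DEX-6h and SAP-6h in edgeR or DESeq2, with 0 at an unadjusted p below 0.05, against 12.1% of all genes, while 0.979% of all genes passed. All DEX-6h rats lay above all SAP-6h rats for Herpud1 and Asns and below them for Ddit3. These were 2 and 1 of the 10 genes, beside 8.75% and 8.74% of all genes tested. Against Sham-6h, Herpud1 alone rose in DEX-6h, beside 5.16% of all genes. All DEX-6h rats lay above all Sham-6h rats in 3 of the 10 genes and below them in 1, beside 10.6% and 16.2% of all genes tested. Herpud1, one of the 3, measured 139, 134 and 144 FPKM in DEX-6h and 91.7, 88.4 and 86.7 FPKM in Sham-6h, narrow ranges that lay far from each other (log2 0.69, SE 0.214, adjusted p = 0.0435). The adjusted p rose to between 0.0682 and 0.108 when any one of the 6 libraries was left out, and was 0.0543 without the low-count filter, while DESeq2 gave 0.0177, beside 13.3% of all genes passing there. Of 6 ciliated markers 3 rose here (Tekt1, Ccdc39 and Stoml3), the macrophage marker Adgre1 (1 of 6), the alveolar type 2 marker Lamp3 (1 of 8) and the alveolar type 1 marker Aqp5 (1 of 6) fell, and of 6 endothelial markers Cldn5 rose and Kdr fell. Their part in the rise of Herpud1 was not tested. The interaction of DEX against SAP with time gave 0 of 10 genes in edgeR and DESeq2, with 3 at an unadjusted p below 0.05 (Herpud1, Xbp1 and Asns), against 13.6% of all genes, and 0.169% of all genes passing.

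Emodin, the compound of interest in the study, was compared with SAP at both times. In Emo-24h against SAP-24h, 6 of the 10 genes fell and none rose, while 5.02% of all genes fell and 3.56% rose. They were the same symbols as those that rose in SAP-24h against Sham-24h, which is no separate evidence because both comparisons share the SAP-24h libraries. By the 2-fold rule 4 genes fell, Hspa5, Sdf2l1, Herpud1 and Atf4, against 1.26% of all genes. The median log2 fold change of the 10 genes was -0.755, that without SAP-24h replicate 1 was -0.395, and that of all genes was 0.015.

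Hspa5 measured 203, 148 and 152 FPKM in Emo-24h, all above the lowest SAP-24h rat (log2 -1.59, SE 0.452, adjusted p = 0.0333). Sdf2l1 measured 39.2, 32.0 and 31.0 FPKM, likewise inside the SAP-24h range (log2 -1.44, adjusted p = 0.0305). Herpud1 measured 80.5, 63.1 and 67.3 FPKM, of which one overlapped the lowest SAP-24h rat (log2 -1.003, SE 0.215, adjusted p = 0.00814). Xbp1 measured 169, 164 and 150 FPKM and lay below all SAP-24h rats (log2 -0.71, adjusted p = 0.0246). Atf4 measured 216, 178 and 249 FPKM (log2 -1.08, adjusted p = 0.0265) and Trib3 8.12, 8.62 and 7.7 FPKM (log2 -0.75, adjusted p = 0.037), both also below all SAP-24h rats. In all, 3 of the 10 genes lay below all SAP-24h rats and 0 above, beside 6.23% and 23.0% of all genes tested. The 4 genes that did not pass included Ddit3, at 38.2, 29.0 and 34.9 FPKM, within the SAP-24h range. Of these 4 DESeq2 passed Dnajb9 (log2 -0.66, adjusted p = 0.0454) and Asns (log2 -0.78, adjusted p = 0.0336), so that 8 of the 10 genes passed there, beside 13.4% of all genes in either direction.

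This comparison too depended on single libraries. Without SAP-24h replicate 1, Herpud1 alone of the 6 passed (log2 -0.46, adjusted p = 0.0433), beside 2.39% of all genes lower in that fit, and Hspa5 was at log2 -0.60 (adjusted p = 0.362), Sdf2l1 at -0.69 (0.258), Xbp1 at -0.32 (0.182), Atf4 at -0.57 (0.192) and Trib3 at -0.71 (0.0928). Without Emo-24h replicate 1, Herpud1 again was the one of the 6 to pass, without Emo-24h replicate 2 none of the 6 did, and without Emo-24h replicate 3 Atf4, Herpud1 and Xbp1 did. Without SAP-24h replicate 2 the call of Trib3 was lost. None of the 6 passed in a fit of these 6 libraries alone, with adjusted p from 0.121 (Trib3) to 0.213 (Xbp1), and of the 6 Herpud1 alone passed in limma on log2(FPKM + 1) (-0.71, adjusted p = 0.0271). The neutrophil sum lay at 4340 to 6617 FPKM in Emo-24h against 4595 to 16560 FPKM in SAP-24h, and 1 of 8 markers tested, Camp, fell. The alveolar type 2 sum was 26320 to 31720 FPKM in Emo-24h, and 1 of 8 markers, Sftpd, fell, with a median of -0.485. The plasma cell sum was 219.2 to 292.3 FPKM in Emo-24h, above the SAP-24h range of 175.7 to 192.8 FPKM, with a median log2 fold change of 0.724 and 0 of 8 markers past the test. The heart muscle sum was 127.6 to 264.2 FPKM in Emo-24h and 7.46 to 136.2 FPKM in SAP-24h, with a median of 1.74 and 0 of 8 past the test. The ciliated marker Stoml3 and the endothelial marker Kdr rose, 1 of 6 in each list. The part of these cell types in the lower levels was not tested. Between Emo-24h and Sham-24h, 0 of the 10 genes passed in edgeR and in DESeq2, 0 had an unadjusted p below 0.05, against 3.0% of all genes, and 0% of all genes passed.

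At 6 h the emodin rats split. Between Emo-6h and SAP-6h, 0 of the 10 genes passed in edgeR, and 0.0314% of all genes did. In edgeR 2 had an unadjusted p below 0.05 (Dnajb9 and Chac1), against 13.5% of all genes. In DESeq2 none passed either, but Chac1 was given no adjusted p there (log2 1.27, unadjusted p = 0.0169). DESeq2 gave an adjusted p to 7592 of the 15934 genes in this comparison, and 0.32% of the 15934 passed. Chac1 measured 1.19, 1.48 and 7.72 FPKM in Emo-6h against 1.37, 1.12 and 1.87 FPKM in SAP-6h, and its log2 fold change of 1.26 (adjusted p = 0.318) became -0.13 without Emo-6h replicate 3. Ddit3 measured 31.2, 29.1 and 95.8 FPKM and Atf4 265, 218 and 483 FPKM in Emo-6h. Asns measured 18.4, 16.5 and 31.6 FPKM and Trib3 11.8, 10.8 and 21.4 FPKM. In all of these genes replicate 3 alone was high and the other two lay among the other groups. Hspa5 did not share this split, at 158, 126 and 191 FPKM, nor did Xbp1, at 180, 167 and 168 FPKM. All Emo-6h rats lay below all SAP-6h rats for Dnajb9 and Xbp1, 2 of the 10 genes, and above them for 0. The shares of all genes tested were 6.48% below and 11.4% above. Against Sham-6h, 0 of the 10 passed in edgeR, while 3.26% of all genes did. An unadjusted p below 0.05 was found for 4 of them (Herpud1, Trib3, Asns and Chac1), against 22.6% of all genes. In DESeq2 1 of the 10 passed, Chac1 (log2 1.51, adjusted p = 0.046), as did 8.4% of all genes. In edgeR Chac1 was at log2 1.498 (adjusted p = 0.102), and at 0.115 (adjusted p = 0.914) without Emo-6h replicate 3.

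The 2 drugs were also compared with each other. In Emo-24h against DEX-24h, Dnajb9 fell as the only one of the 10, beside 3.75% of all genes. It measured 15.8, 14.9 and 12.8 FPKM in Emo-24h and 22.7 to 25.4 FPKM in DEX-24h, without overlap (log2 -0.80, SE 0.231, adjusted p = 0.0303). All Emo-24h rats lay below all DEX-24h rats in 3 of the 10 genes and above them in 1, beside 10.8% and 18.6% of all genes tested. The call was lost when any one of the 6 libraries was left out, with adjusted p from 0.0606 to 0.0838. DESeq2 passed Dnajb9 and Trib3 (log2 -0.70, adjusted p = 0.025), beside 12.2% of all genes in either direction. Of 8 plasma cell markers 4 rose (Jchain, Prdm1, Irf4 and Cd79a), with a median of 1.107, and the alveolar type 2 marker Sftpb (1 of 8), the alveolar type 1 marker Hopx and the endothelial marker Cldn5 (1 of 6 each) fell. Their part in the fall of Dnajb9 was not tested. In Emo-6h against DEX-6h, 0 of the 10 passed in edgeR and in DESeq2, 2 had an unadjusted p below 0.05 (Ddit3 and Chac1), against 17.3% of all genes, and 2.88% of all genes passed.

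Dnajb9 rose from 6 h to 24 h in each of the 3 pancreatitis arms. In DEX it went from 11.6, 10.1 and 10.1 FPKM to 25.4, 22.7 and 24.4 FPKM, with no overlap (log2 1.203, SE 0.232, adjusted p = 0.000949). All DEX-24h rats lay above all DEX-6h rats in 1 of the 10 genes and below them in 3, beside 21.0% and 21.6% of all genes tested. In DEX 1 of the 10 genes rose, beside 13.6% of all genes, and by the 2-fold rule 1 rose beside 3.23%. In Emo Dnajb9 went from 7.51, 7.73 and 9.04 FPKM to 15.8, 14.9 and 12.8 FPKM (log2 0.79, SE 0.232, adjusted p = 0.0112), the 1 gene of the 10 to rise, beside 17.3% of all genes. In SAP it was likewise the 1 gene to rise, beside 3.17% of all genes (log2 0.86, adjusted p = 0.031), but when single libraries were left out this call held only without SAP-24h replicate 2. Without SAP-24h replicate 1 the SAP value was log2 0.55 (adjusted p = 0.172), in a fit of SAP alone its adjusted p was 0.188, and in limma it was 0.0791. DESeq2 passed Dnajb9 and Hspa5 with time in SAP (Hspa5 log2 1.22, adjusted p = 0.0462), beside 10.3% of all genes in either direction. The DEX and Emo rises passed without each of their 6 libraries in turn. Cell markers moved with time too, and their part in these differences was not tested. In DEX 2 of 6 macrophage, 1 of 8 alveolar type 2, 1 of 6 alveolar type 1 and 2 of 6 endothelial markers rose, while 1 of 8 plasma cell, 1 of 8 neutrophil and 2 of 6 endothelial markers fell. In Emo 1 of 6 macrophage, 1 of 8 alveolar type 2, 1 of 6 ciliated and 2 of 6 endothelial markers rose, while 1 of 6 macrophage, 1 of 8 alveolar type 2, 1 of 6 alveolar type 1, 2 of 6 endothelial and 1 of 5 acinar markers fell. In SAP 1 of 8 plasma cell, 1 of 6 endothelial and 1 of 6 ciliated markers fell. Of 8 heart muscle markers 0 passed in each arm, at medians of -0.76 in DEX, 1.734 in Emo and -1.36 in SAP. The neutrophil median in SAP was 1.064, with 0 of 8 past the test. The acinar median in DEX was -1.395, with 0 of 5.

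Herpud1, Trib3, Asns and Chac1 moved the other way with time under emodin. The 4 genes fell from Emo-6h to Emo-24h, beside 16.8% of all genes, and by the 2-fold rule 1 gene fell (Chac1), beside 3.08%. Herpud1 went from 123.4, 117 and 121 FPKM to 80.5, 63.1 and 67.3 FPKM (log2 -0.82, SE 0.214, adjusted p = 0.00513) and passed without each library in turn. Trib3 fell by 0.90 on the log2 scale (SE 0.219, adjusted p = 0.00328), and without Emo-6h replicate 3 by 0.53 (adjusted p = 0.045). Asns fell by 0.92 on the log2 scale (adjusted p = 0.00913) and Chac1 by 1.62 (adjusted p = 0.0234). Without Emo-6h replicate 3 neither passed, Asns being at -0.58 (adjusted p = 0.0971) and Chac1 at -0.24 (adjusted p = 0.72), and the Chac1 call was also lost without any one of the Emo-24h libraries, in a fit of Emo alone (adjusted p = 0.124) and in limma (0.101). In the fit without Emo-6h replicate 3, 14.2% of all genes fell. In DEX 2 of the 10 genes fell with time, Herpud1 (log2 -0.60, adjusted p = 0.0409) and Asns (log2 -0.80, adjusted p = 0.0259), beside 12.3% of all genes. The DEX call of Herpud1 was lost when any one library was left out and without the low-count filter (adjusted p = 0.052), and that of Asns without DEX-24h replicate 1 or 2 or DEX-6h replicate 1. DESeq2 passed the same genes with time as edgeR in both drug arms, beside 36.7% of all genes in Emo and 28.4% in DEX. In the controls 0 of the 10 genes passed with time in edgeR or DESeq2. Sham had 1 gene at an unadjusted p below 0.05, Trib3, against 20.4% of all genes, and 0.992% of all genes passing. Con had 0 genes against 10.5%, and 0.0126% passing. In Sham the log2 fold changes with time had the same signs as in the drug arms, 0.43 for Dnajb9 (adjusted p = 0.303), -0.36 for Herpud1 (0.353) and -0.50 for Trib3 (0.2). Asns was there at -0.22 (0.695) and Chac1 at -0.54 (0.622). In Con they were 0.15 for Dnajb9, 0.07 for Herpud1, -0.14 for Trib3, -0.36 for Asns (adjusted p = 0.675) and 0.04 for Chac1, the signs of Herpud1 and Chac1 being the opposite ones. Asns measured 13.56, 17.29 and 16.39 FPKM in Con-6h and 12.74, 12.25 and 10.4 FPKM in Con-24h, without overlap. All Con-24h rats lay below all Con-6h rats in 2 of the 10 genes and above them in 0, beside 9.38% and 5.32% of all genes tested. All Sham-24h rats lay above all Sham-6h rats for Dnajb9 and below them for Herpud1, Ddit3 and Trib3. These were 1 and 3 of the 10 genes, beside 11.5% and 11.6% of all genes tested. Whether the change with time differed between the drug arms and the controls was not tested.

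The difference between emodin and SAP was tested for change with time, as the Emo-24h to SAP-24h fold change over the Emo-6h to SAP-6h one. Of the 10 genes 2 passed below 0, Herpud1 (log2 -1.19, SE 0.302, adjusted p = 0.0362) and Atf4 (log2 -1.44, SE 0.409, adjusted p = 0.0499), beside 2.27% of all genes. Both exceeded 2-fold, as did 0.621% of all genes. For Herpud1 the Emo to SAP log2 fold change was 0.19 at 6 h and -1.003 at 24 h, and for Atf4 0.37 and -1.08. Neither passed without SAP-24h replicate 1 (Herpud1 -0.65, adjusted p = 0.0509, and Atf4 -0.93, adjusted p = 0.123) or without Emo-6h replicate 3 (Herpud1 -1.21, adjusted p = 0.0669, and Atf4 -1.05, adjusted p = 0.133), fits in which 0.812% and 0.341% of all genes passed below 0. Both calls were also lost without Emo-24h replicate 1 or 2, Emo-6h replicate 1 or SAP-6h replicate 2, and that of Atf4 without SAP-6h replicate 3. A fit of these 12 libraries alone gave adjusted p of 0.159 for Herpud1 and 0.166 for Atf4, and limma 0.0726 and 0.104. Without the low-count filter the adjusted p of Atf4 was 0.0518. DESeq2 passed both genes and Asns (log2 -1.23, adjusted p = 0.0229), beside 9.21% of all genes in either direction. The ciliated marker Stoml3, 1 of 6, passed above 0 in the same test (log2 5.61, adjusted p = 0.0213). No marker of heart muscle, plasma cells or neutrophils passed, 0 of 8 in each list, at list medians of 3.004, 1.159 and -1.14. The part of these cell types in the values was not tested.

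Other genes of the same pathways were taken from lists that hold none of the 10. In SAP-24h against Sham-24h, 6 of 18 ER chaperones and folding enzymes rose and none fell, beside the 6.8% of all genes that rose, with a median log2 fold change of 0.47 (0.254 without SAP-24h replicate 1). The largest rises were in Manf, a secreted ER stress factor (log2 1.54, adjusted p = 0.00422, 313.4 ± 214.0 against 120.8 ± 19.1 FPKM), Creld2, an ER isomerase (1.41, 0.019), and Hyou1, an ER Hsp70 exchange factor (1.40, 0.0085). Of 15 degradation and translocation genes 5 rose, with a median of 0.276, and of 12 sensors and eIF2alpha regulators 2 rose, one of them Ppp1r15a, which directs eIF2alpha dephosphorylation (1.29, 0.00445). Of 24 amino acid response and ATF4 targets 4 rose and 1 fell (Vldlr), beside 6.8% and 5.62% of all genes, with a median of 0.373 (0.219 without SAP-24h replicate 1), the largest rise being in Slc7a1, a cationic amino acid carrier (1.60, 0.0149). Of 12 cytosolic tRNA synthetases 1 rose, Aars, a share near that of all genes. Without SAP-24h replicate 1 the number passing dropped from 6 to 1 for the chaperones, from 5 to 4 for degradation, from 2 to 1 for the sensors, from 5 to 0 for the ATF4 targets and from 1 to 0 for the synthetases. The genes that still passed were all higher, and the share of all genes passing dropped from 12.4% to 5.39%, of which 3.2% rose. Manf (log2 0.78, adjusted p = 0.0491) and Ppp1r15a (0.89, 0.0427) still passed, and Hyou1 (0.81, 0.0892), Creld2 (0.56, 0.272) and Slc7a1 (0.73, 0.201) did not. The counts by list depended on the control. Against Con-24h 13 of 18 chaperones rose (median 0.737), 3 of 15 degradation genes (0.328), 3 of 12 sensors (0.27), 5 of 24 ATF4 targets (0.07) and 1 of 12 synthetases (0.301), and none fell, beside 12.1% of all genes higher. Without SAP-24h replicate 1 the chaperones passing there were 2 and the ATF4 targets 3, beside 7.74% of all genes higher. Between Sham-24h and Con-24h the list medians were 0.038 for the chaperones and -0.297 for the ATF4 targets.

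In Emo-24h the same lists showed 5 chaperones, 6 degradation genes, 2 sensors and 3 ATF4 targets lower than in SAP-24h, and 1 ATF4 target higher. The lists held 18, 15, 12 and 24 genes tested, and 5.02% of all genes were lower and 3.56% higher. Of 12 synthetases 0 passed, at a median of -0.391. Manf fell by 1.45, Hyou1 by 1.31, Creld2 by 1.28, Ppp1r15a by 1.03 and Slc7a1 by 1.50 on the log2 scale in Emo-24h, with adjusted p from 0.0094 to 0.0387. Without SAP-24h replicate 1 none of these passed, at -0.70 for Manf, -0.73 for Hyou1, -0.44 for Creld2, -0.62 for Ppp1r15a and -0.64 for Slc7a1, with adjusted p from 0.0856 to 0.415. The numbers then passing were 1 chaperone, 4 degradation genes, 0 sensors and 0 ATF4 targets, all lower, beside 2.39% of all genes lower and 1.48% higher in that fit. With time under emodin, 10 of 24 ATF4 targets and 6 of 12 tRNA synthetases fell, beside 16.8% of all genes, and 1 ATF4 target rose, beside 17.3%. Of the other lists 7 of 15 degradation genes, 3 of 18 chaperones and 2 of 12 sensors fell, while 2 degradation genes, 2 chaperones and 3 sensors rose. Without Emo-6h replicate 3, 3 ATF4 targets, 1 synthetase, 4 degradation genes, 3 chaperones and 2 sensors fell, beside 14.2% of all genes, and 1 ATF4 target, 2 degradation genes, 1 chaperone and 3 sensors rose, beside 14.0%.

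In DEX-24h against SAP-24h, 2 of the 24 ATF4 targets rose (Psat1 and Slc38a2) and 1 fell (Sesn2), beside 2.99% and 4.73% of all genes, and the median of the list was -0.311, on the other side of 0 from Psat1. Of the 15 degradation genes 1 rose, Erlec1, and of the chaperones, sensors and synthetases 0 passed. Psat1, an enzyme of serine synthesis, measured 18.77 ± 3.25 FPKM in DEX-24h against 6.183 ± 0.645 FPKM in SAP-24h (log2 1.51, adjusted p = 0.000472), and passed without SAP-24h replicate 1 as well (1.56, 0.00202). In Emo-24h against DEX-24h, 4 of the 24 ATF4 targets fell and 0 rose, beside 3.75% of all genes lower, with a list median of -0.123. They were Psat1 (log2 -1.69, adjusted p = 0.00016), Ddit4, an inhibitor of mTORC1 (-1.82, 0.00621), Slc38a2, a neutral amino acid carrier (-1.18, 0.000262), and Gpt2, an alanine aminotransferase (-1.06, 0.0345). In the same comparison 6 of 15 degradation genes fell, with a list median of -0.307, as did 2 of 12 sensors (Ern1 and Atf6) and 1 of 18 chaperones (P4hb). In Emo-6h against DEX-6h 4 of 24 ATF4 targets rose (Sesn2, Gdf15, Slc1a4 and Slc1a5) and 0 fell, beside 1.67% of all genes higher, and 1 of 12 sensors, Ern1, fell. Gdf15, a stress hormone, was at log2 1.32 (adjusted p = 0.0129), and at 1.07 (adjusted p = 0.065) without Emo-6h replicate 3, where 1 ATF4 target rose, beside 1.18% of all genes.

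The pair of high libraries differed in which of these lists they held. SAP-24h replicate 1 had the highest value of 30 libraries in 11 of 18 chaperones (61.1%), in 2 of 12 synthetases, in 2 of 20 ATF4 targets with a median of at least 1 FPKM, in 2 of 15 degradation genes and in 2 of 12 sensors, beside 6.22% of all genes. Emo-6h replicate 3 had it in 1 chaperone, 9 synthetases (75.0%), 12 ATF4 targets (60.0%), 3 degradation genes and 0 sensors, beside 9.99% of all genes. Since one library alone can be highest for a gene, the median ratios to the median of the 30 libraries are also given. They were 1.76 in SAP-24h replicate 1 and 1.17 in Emo-6h replicate 3 for the chaperones, 1.42 and 1.65 for the synthetases, 1.26 and 1.76 for the ATF4 targets, 0.985 and 1.09 for degradation and 0.973 and 1.04 for the sensors. Both libraries were thus above the median of all libraries in the synthetases and the ATF4 targets. Hsp90b1, the ER Hsp90, measured 462, 131 and 254 FPKM in SAP-24h and Manf 548, 129.8 and 263 FPKM. In Emo-6h Mthfd2, a mitochondrial folate enzyme, measured 4.72, 4.31 and 26.0 FPKM, and Phgdh, the first enzyme of serine synthesis, 3.16, 2.92 and 13.5 FPKM. In both genes replicate 3 alone of the Emo-6h rats was high, and SAP-24h replicate 1 was at 2.54 times the median for Mthfd2 and 0.587 times for Phgdh. Of the kinases that phosphorylate eIF2alpha, Eif2ak2, the double-stranded RNA sensor PKR, measured 15.89, 2.93 and 5.08 FPKM in SAP-24h and 3.35, 4.23 and 27.34 FPKM in Emo-6h. The 2 high libraries were at 3.37 and 5.79 times its median, and the highest of all libraries was Emo-24h replicate 3. Eif2ak3, which is PERK, was at 0.902 and 0.942 times its median in the same libraries, the amino acid sensor Eif2ak4, GCN2, at 0.529 and 0.849 times, and the haem-regulated kinase Eif2ak1 at 0.989 and 1.13 times. In Hsp90b1 and Manf the SAP-24h rats were graded, replicate 1 highest and replicate 2 lowest. Markers stood apart in Emo-6h replicate 3 as well. Its ciliated cell sum was 381.2 FPKM, rank 29 of the 30 libraries from the top, its club cell sum 25140 FPKM, rank 27, and its macrophage sum 254.2 FPKM, rank 3. Its neutrophil sum was 1369 FPKM, rank 21, against 3625 and 3841 FPKM in the other two Emo-6h rats. The macrophage markers did not move as one there, Cd68 being the highest of all libraries at 172.38 FPKM and Mrc1 the lowest at 20.05 FPKM. The part of these cells in its values was not tested.

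**Figure D5:**
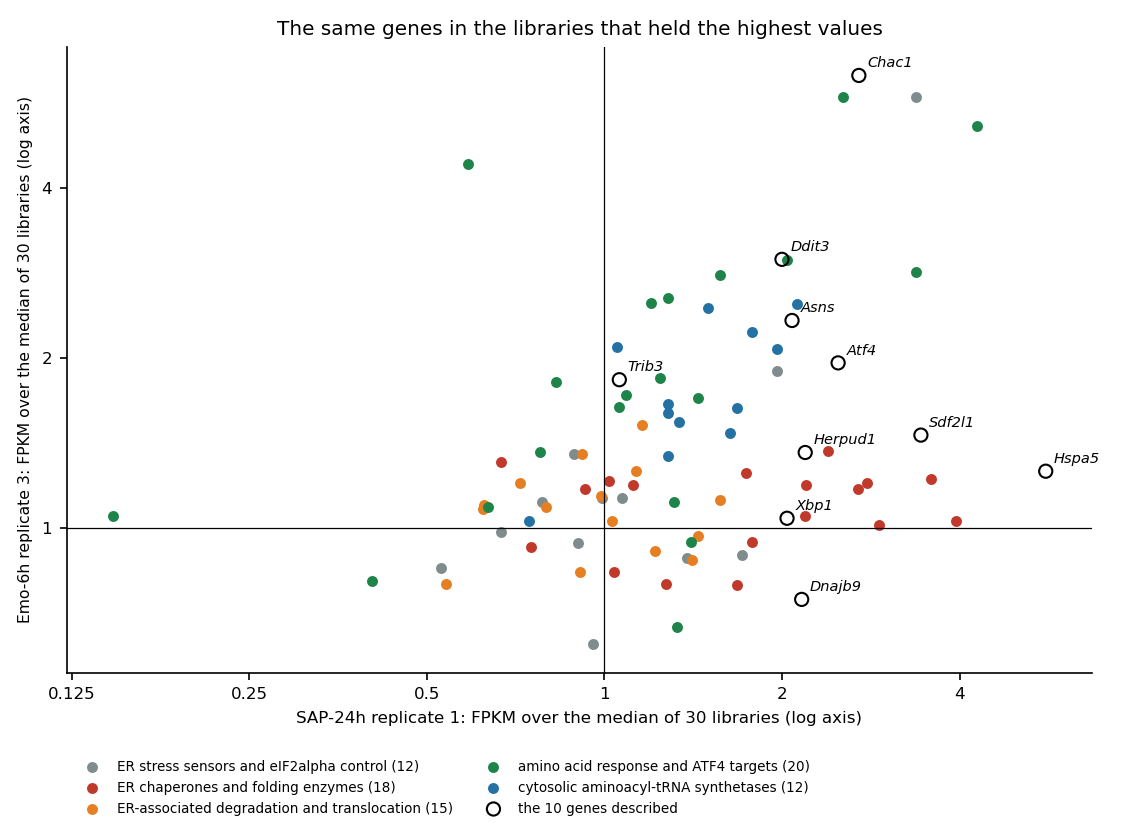
Each point is a gene of the 10 or of the pathway lists, placed by its FPKM over the median of 30 libraries in SAP-24h replicate 1 (horizontal, log axis) and in Emo-6h replicate 3 (vertical, log axis). Hspa5 lies far to the right (5.6 and 1.26) and Chac1 far up (2.7 and 6.33).

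The likeness of gene profiles was described by Pearson's r of log2(FPKM + 1) over the 30 libraries, among 12358 candidate genes. The libraries share groups, so these values are descriptions only. Hspa5 was most like Hsph1 (r = 0.938), Stip1 (0.934) and Dnajb11 (0.921), chaperones or cochaperones, and Sdf2l1 most like Calr (0.918), Hyou1 (0.895) and Pdia4 (0.849), of the ER. Herpud1 was most like Bag3 (0.945), Rcl1 (0.901) and Slc25a25 (0.894), and Dnajb9 most like Tmed2 (0.933), AABR07034532.1 (0.932) and C1galt1 (0.921). Atf4 was most like Mafk (0.903), Jmjd6 (0.901) and Slc7a1 (0.901), and Xbp1 most like Slc41a1 (0.875), Inhbb (0.875) and Selp (0.847). Asns was most like Cars (0.91), Aars (0.882) and Eif4ebp1 (0.878), Cars and Aars being tRNA synthetases. Chac1 was most like Rnf19b (0.842), Aars (0.84) and Yars (0.838), Ddit3 most like Gch1 (0.823), Zc3hav1 (0.818) and Lactb (0.804), and Trib3 most like Cnppd1 (0.826), Nfkbib (0.792) and Psen2 (0.789). In the 28 libraries without the high pair, r of Hspa5 with Hsph1 was 0.88 and r of Chac1 with Rnf19b, Aars and Yars was 0.416, 0.57 and 0.583. Between the 10 genes themselves r exceeded 0.75 for 3 pairs, Ddit3 with Chac1 (0.838), Hspa5 with Sdf2l1 (0.83) and Herpud1 with Asns (0.799). Without the high pair these became 0.474, 0.717 and 0.768.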

How the data were processed

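Lung RNA of 30 rats (TRIzol, poly(A) selection, directional libraries) was sequenced by the authors. The submitters' processing notes name bcl2fastq, TopHat2 and edgeR, and the annotation was Ensembl rat. The deposited counts are reads per gene, not normalized, and the deposited FPKM values are the authors' scaling of them by length and depth. Antisense reads were discarded for lncRNA genes, and strand use for other genes is not given in the sources used here. Groups came from the sample labels, and columns were matched to samples by name. Library totals were 16813949 to 34692306 reads.

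The counts were tested with edgeR 4.0.16 (quasi-likelihood, TMM, filterByExpr with a minimum count of 10 and a minimum total of 15), with one term per group over all 30 libraries (20 residual degrees of freedom), 21 comparisons and 3 interactions, and Benjamini-Hochberg adjustment over 15934 genes. The script was tested on simulated data. FPKM values were used for levels, for profile likeness and in limma 3.58.1 on log2(FPKM + 1) as an alternative (16300 genes with a mean of at least 0.1 FPKM). Other alternatives were DESeq2 1.42.0, RLE scaling, no filter, only the groups compared, a replicate block and leaving out each library. All were run in R 4.3.3, with figures in matplotlib 3.10.9.

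The 10 genes and the pathway and marker lists were chosen with earlier results of these data known. Outside the 10 genes, those named from the pathway lists passed the 2-fold rule in a main comparison between groups, or were chosen after their values were seen, because few genes of their list passed or for the pair of high libraries, and profile neighbours were the 3 with the highest r. Groups share replicate numbers. Same-numbered libraries deviated together (all 3 correlations over 0.1) in 1 of 21 comparisons, DEX-24h against DEX-6h (0.212, 0.221 and 0.23), and the block changed no call of the 10 genes there.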

Additional observations from a re-analysis of the deposited data

Results flagged for a closer look

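The difference between emodin and SAP changed between 6 h and 24 h in 2 of the 10 genes by the interaction test in edgeR, 3 rats per group, beside 2.27% of all genes below 0 (0.621% by the 2-fold rule). For Herpud1 the interaction was -1.19 on the log2 scale (SE 0.302, adjusted p = 0.0362). For Atf4 it was -1.44 (SE 0.409, adjusted p = 0.0499). Neither passed once SAP-24h replicate 1 or Emo-6h replicate 3 was left out, as given above.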

How the results depend on the processing

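Of the 35 effects of the 10 genes with an adjusted p below 0.05, all kept their direction in all 458 alternative fits, and 158 of these fits no longer passed. The 4 effects that passed in every alternative were the rises of Dnajb9 with time in DEX and in Emo and the declines of Herpud1 and Trib3 with time in Emo. Counts by the 2-fold rule were 4 for SAP-24h against Sham-24h, 3 for SAP-24h against Con-24h, 4 for Emo-24h against SAP-24h, 2 for the interaction of Emo and SAP with time, and 1 each for time in DEX and in Emo. A fit of only the groups compared gave 0 for all of these but time in DEX, and ended 24 of the 35 calls, namely every call that involves SAP-24h and that of Chac1 with time in Emo. With 6 or 12 libraries the spread is estimated from fewer rats. limma on log2(FPKM + 1) gave 2, 1, 0, 0 and, for time in Emo, 0, and ended 16 of the 35 calls. No filter on low counts ended 3, the replicate block 2, and RLE scaling and DESeq2 0. Leaving out both high libraries, a choice made after seeing the data, gave 0 for the same 5 comparisons. By the 2-fold rule DESeq2 gave 1 for DEX-24h against SAP-24h (Hspa5), for Emo-6h against Sham-6h (Chac1) and for time in SAP (Hspa5). For SAP-24h against Sham-24h it also called Xbp1 (log2 1.03), and for the interaction of Emo also Asns (log2 -1.23). By the adjusted p alone, DESeq2 passed 11%, 8.4%, 10.3%, 17.1% and 9.21% of all genes in these 5 comparisons, in either direction. Without a low-count filter DEX-24h against Sham-24h gave 1 and the interaction 1. With the adjusted p alone the counts were 7 for SAP-24h against Con-24h, 5 for time in Emo, 3 in DEX, 1 in SAP, 2 for DEX-24h against Sham-24h, and 1 for DEX-24h against SAP-24h, DEX-6h against Sham-6h and Emo-24h against DEX-24h. At an unadjusted p below 0.05 together with the 2-fold rule they were 2 for DEX-24h against SAP-24h. For the interactions of Emo, SAP and DEX they were 5, 3 and 1. For Emo-6h against DEX-6h, SAP-6h and Sham-6h and for time in SAP they were 1. At an unadjusted p below 0.05 alone, 23.1%, 23.4%, 12.6%, 13.6%, 17.3%, 13.5%, 22.6% and 24.8% of all genes passed, in the same order. No share of all genes by both rules is given. The same holds for counts by the 2-fold rule in the alternative fits, so these counts show only how the calls move.

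With the replicate block the interaction of Emo and SAP gave 1 gene, Atf4 being lost (adjusted p = 0.0544), and the call of Asns in SAP-24h against Con-24h was lost. The block changed no other call. Every library came from its own rat, and the labels link same-numbered libraries by the number alone.

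Leaving out 1 library at a time gave 0 to 6 genes by the 2-fold rule for SAP-24h against Sham-24h, 0 to 4 against Con-24h, 0 to 5 for Emo-24h against SAP-24h, 0 to 3 for DEX-24h against SAP-24h, 0 to 3 for time in Emo, 0 to 4 in SAP, 0 to 1 for Emo-6h against Sham-6h, 0 to 1 for the interaction of DEX and 0 to 5 for that of Emo. For SAP-24h against Sham-24h the 0 came without SAP-24h replicate 1 and the 6 without replicate 2. No share of all genes by the 2-fold rule is given for these fits. The share of all genes passing the adjusted p alone moved too when SAP-24h replicate 1 was left out. It went from 12.4% to 5.39% in SAP-24h against Sham-24h and from 8.59% to 3.87% in Emo-24h against SAP-24h. Of the 10 genes, the number passing the adjusted p went from 6 to 2 and from 6 to 1 in the same fits. Whether the ranges by the 2-fold rule are particular to these genes was not tested, since these shares follow another rule. With 3 rats per group, a call that one library can end is weakly determined.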
